A study of Homo sapiens with 4 samples.

Results

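The region described here is a stretch of 700 kb on the long arm of human chromosome 19, from base 52300000 to base 53000000 of the hg19 (GRCh37) build, in the band 19q13.41. Its bounds are positions, set when earlier results of these data were known, and every CpG site listed within them was taken. There were 9009 such CpGs of 27710999 on the autosomes and X, and they filled 140 tiles of 5 kb of the 567027 tiles that held a CpG. CpG methylation (mCG) was read by EM-seq, an enzymatic counterpart of bisulfite sequencing, where an unmethylated cytosine appears as T in the reads and a methylated one as C. DNA came from HEK293T, an established human line of embryonic kidney origin, that was wild type (WT) or had lost ZNF274 through CRISPR-Cas9 (ZNF274KO), with 2 libraries in each group and no other treatment. The knockout was made with a pair of guides on either side of the gene, followed by puromycin selection and sorting of single cells, and the labels do not say whether the ZNF274KO libraries came from 1 clone or from 2. Nothing in the labels says that the libraries of a group came from separate cultures, so the p-values measure only the spread between these libraries, which may be technical.

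KRAB zinc finger proteins (KZFPs) bind DNA through a row of C2H2 zinc fingers, each built around a zinc ion, and recruit the corepressor TRIM28 through their KRAB domain, which leads to methylation of histone H3 on lysine 9. Their genes arose by repeated duplication and lie side by side in clusters, most of them on chromosome 19, and the fingers are usually encoded by the last coding exon. ZNF274 is itself a KZFP and is known to bind within the finger-encoding exons of other KZFP genes. CpG methylation typically spares CpG islands at gene starts, is high within transcribed gene bodies and differs more widely between genes.

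Of the 19 protein-coding genes that overlap the region, 17 are KZFP genes. From left to right these are ZNF577, ZNF649, ZNF613, ZNF350, ZNF615, ZNF614, ZNF432, ZNF841, ZNF616, ZNF836, ZNF766, ZNF480, ZNF610, ZNF880, ZNF528, ZNF534 and ZNF578. FPR3, a receptor of the formyl peptide family found on myeloid cells, lies at the left end, and PPP2R1A, a scaffold subunit of protein phosphatase 2A, lies between ZNF836 and ZNF766. Translation of the coding sequences found between 7 and 24 C2H2 finger patterns in each KZFP gene and 225 in all, and all 225 lay in the last coding exon. In GENCODE 44 on GRCh37, 8 of the KZFP genes are read from the plus strand and 9 from the minus strand. FPR3 starts left of the region, and the body of ZNF578 runs past its right end, so that the last coding exon of ZNF578 (chr19:53013825-53015404) lies outside.

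The sequences below show the promoters and the exon described further on. They are the 300 bases before the start of the 2 KZFP genes whose promoter level was highest relative to WT and of the 2 whose promoter level was lowest, and a 300-base window within the finger-encoding exon of ZNF528, the gene whose body differed most from WT. This window was picked after the values were seen as the window of that exon with the most CpGs. All 5 are read 5′ to 3′ on the strand of the gene in GRCh37, with each CpG in capitals. The order is ZNF534 (chr19:52932101-52932400, plus), ZNF578 (chr19:52956506-52956805, plus), ZNF836 (chr19:52674875-52675174, minus), ZNF613 (chr19:52430425-52430724, plus) and ZNF528 (chr19:52919089-52919388, plus, exonic and coding).
ZNF534 promoter: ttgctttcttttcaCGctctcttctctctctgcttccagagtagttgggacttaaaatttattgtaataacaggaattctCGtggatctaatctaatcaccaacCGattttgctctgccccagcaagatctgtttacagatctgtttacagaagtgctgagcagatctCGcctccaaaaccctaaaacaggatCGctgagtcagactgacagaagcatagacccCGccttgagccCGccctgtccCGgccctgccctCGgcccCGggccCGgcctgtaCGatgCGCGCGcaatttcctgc
ZNF578 promoter: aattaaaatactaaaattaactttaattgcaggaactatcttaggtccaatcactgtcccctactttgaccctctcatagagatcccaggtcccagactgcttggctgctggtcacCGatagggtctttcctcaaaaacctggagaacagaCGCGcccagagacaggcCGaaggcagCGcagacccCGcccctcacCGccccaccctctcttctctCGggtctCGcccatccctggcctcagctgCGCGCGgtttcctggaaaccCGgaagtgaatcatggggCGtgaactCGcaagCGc
ZNF836 promoter: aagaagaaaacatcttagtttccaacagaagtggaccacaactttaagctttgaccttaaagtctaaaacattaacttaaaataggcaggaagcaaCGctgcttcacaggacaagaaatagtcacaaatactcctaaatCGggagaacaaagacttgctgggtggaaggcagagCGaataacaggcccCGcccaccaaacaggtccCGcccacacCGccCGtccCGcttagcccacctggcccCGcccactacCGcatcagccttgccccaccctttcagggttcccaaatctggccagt
ZNF613 promoter: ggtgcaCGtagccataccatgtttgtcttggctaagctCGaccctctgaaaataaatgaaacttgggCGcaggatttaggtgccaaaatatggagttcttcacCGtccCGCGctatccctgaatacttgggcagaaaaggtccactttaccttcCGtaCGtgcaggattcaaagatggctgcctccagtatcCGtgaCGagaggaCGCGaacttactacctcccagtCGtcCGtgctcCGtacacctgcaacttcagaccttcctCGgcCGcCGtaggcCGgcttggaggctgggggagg
ZNF528 last coding exon: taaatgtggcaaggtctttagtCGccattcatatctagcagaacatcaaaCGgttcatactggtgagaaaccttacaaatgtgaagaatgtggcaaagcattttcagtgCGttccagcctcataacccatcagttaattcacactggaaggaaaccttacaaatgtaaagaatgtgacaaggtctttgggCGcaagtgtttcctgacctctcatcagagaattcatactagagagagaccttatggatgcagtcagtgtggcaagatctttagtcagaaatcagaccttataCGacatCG

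In the ZNF534 sequence, which holds 15 CpGs, WT 1 and WT 2 were at 47.8% and 49.2%, and ZNF274KO 1 and ZNF274KO 2 at 88.9% and 73.8%. At 8 of its CpGs both ZNF274KO libraries were above both WT libraries, and at 0 both were below, with 1 to 7 reads per CpG in ZNF274KO. The genes shown were picked for their differences, and the share of such CpGs over the genome was not counted. Counts of this kind are therefore descriptions here and below. The 16 CpGs before ZNF578 were at 57.5% and 59.0% in WT against 84.6% and 74.4% in ZNF274KO, with 9 CpGs higher in both ZNF274KO libraries and 1 lower, and WT 2 had 39 reads over them, 1 to 4 per CpG. The ZNF528 exon window behaved like an unmethylated stretch in WT, where 0 of 79 and 0 of 56 reads over its 6 CpGs were methylated, which allows levels of up to 3.797% and 5.36%. In ZNF274KO the same window stood at 52.5% and 43.1%, and all 6 CpGs were higher in both libraries. The opposite was seen before ZNF836, with 11.6% and 16.7% in WT and 0 of 102 and 0 of 53 methylated reads in ZNF274KO, which allows up to 2.94% and 5.66%. Both ZNF274KO libraries were below both WT libraries at 2 of its 10 CpGs and above at 0. WT 2 had 36 reads over these CpGs, 2 to 6 per CpG. Before ZNF613 all 19 CpGs were unmethylated in all 4 libraries, over 243 and 126 reads in WT and 284 and 179 in ZNF274KO. The lower promoter level of that gene, given below, was thus not a change of level at these CpGs. Promoter levels are sums of reads, so more reads over these CpGs would also lower them, which was not tested. The limits given for 0 methylated reads cover counting error only.

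The region was covered by 63496 to 82567 reads per library, counted at each CpG they spanned, with a median of 7 to 9 reads per CpG. The targeted gene served as the check of the labels. Over the body of ZNF274 (chr19:58694428-58724928) there were 5142 reads in WT 1 and 4265 in WT 2 against 0 in ZNF274KO 1 and 14 in ZNF274KO 2. Reads per CpG in the region, relative to the autosomes, were 0.859 and 0.823 in WT and 0.925 and 0.810 in ZNF274KO, so the groups overlapped. Relative to the rest of chromosome 19 they were 0.921 and 0.889 in WT and 1.11 and 0.983 in ZNF274KO, where the groups did not overlap, and the part of depth or copy number in the methylation levels was not tested. The difference between the groups was 16.3 percentage points on the plus strand and 17.2 on the minus strand.

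Over the whole region WT 1 and WT 2 had mCG levels of 49.0% and 48.1%, and ZNF274KO 1 and ZNF274KO 2 had 68.1% and 62.5%. Both ZNF274KO libraries stood above both WT libraries, and the mean went from 48.6% ± 0.680 (SD, n = 2) to 65.3% ± 3.95 (SD, n = 2), a difference of 16.7 points (p = 0.333 by a two-sided exact permutation test, which cannot give less with 2 libraries against 2). The gap between the ZNF274KO libraries was wider than that between the WT libraries. On all autosomes together the groups overlapped, with a difference of -0.51 points.

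The stretches on either side show how the region compares with its surroundings. In the 700 kb to the left the level went from 39.0% to 43.3%, and in the 700 kb to the right, which continues the KZFP cluster, from 40.8% to 62.8%. The level of the region minus that of the left neighbour was 12.4 points higher in ZNF274KO than in WT, and minus that of the rest of chromosome 19 it was 14.1 points higher. Minus that of the right neighbour it differed by -5.23 points, so the right neighbour changed more. Each of these 3 comparisons had an exact permutation p of 0.333, the smallest the design allows. The region minus the rest of chromosome 19 stood at -14.0 points in WT and at 0.15 points in ZNF274KO.

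The region was then divided into 5 kb tiles, each tested with edgeR's quasi-likelihood test within a fit of 563514 tiles of the autosomes and X. In ZNF274KO 69 of the 140 tiles were higher at an adjusted p under 0.05, while 0.474% of all tiles tested were. None was called lower (0.0126% of all tiles), with 6 tiles lower at an unadjusted p under 0.05, and limma called 0 lower. Other settings called 1 tile lower without WT 1, WT 2 or ZNF274KO 2, 2 with the replicate number as a block, and 5 of 350 when tiles of 2 kb were used. Both ZNF274KO libraries exceeded both WT libraries in 88 tiles (13.5% of all tiles) and lay below both in 15 (22.3% of all tiles). The median difference was 15.0 points over the 140 tiles and -0.58 points over all tiles tested. ZNF274KO 1 was above ZNF274KO 2 in 109 tiles, and in 67 of the 69 that were called. Limma called 24 tiles, all 24 among the 69, and without ZNF274KO 1 edgeR called 50.

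**Figure D1:**
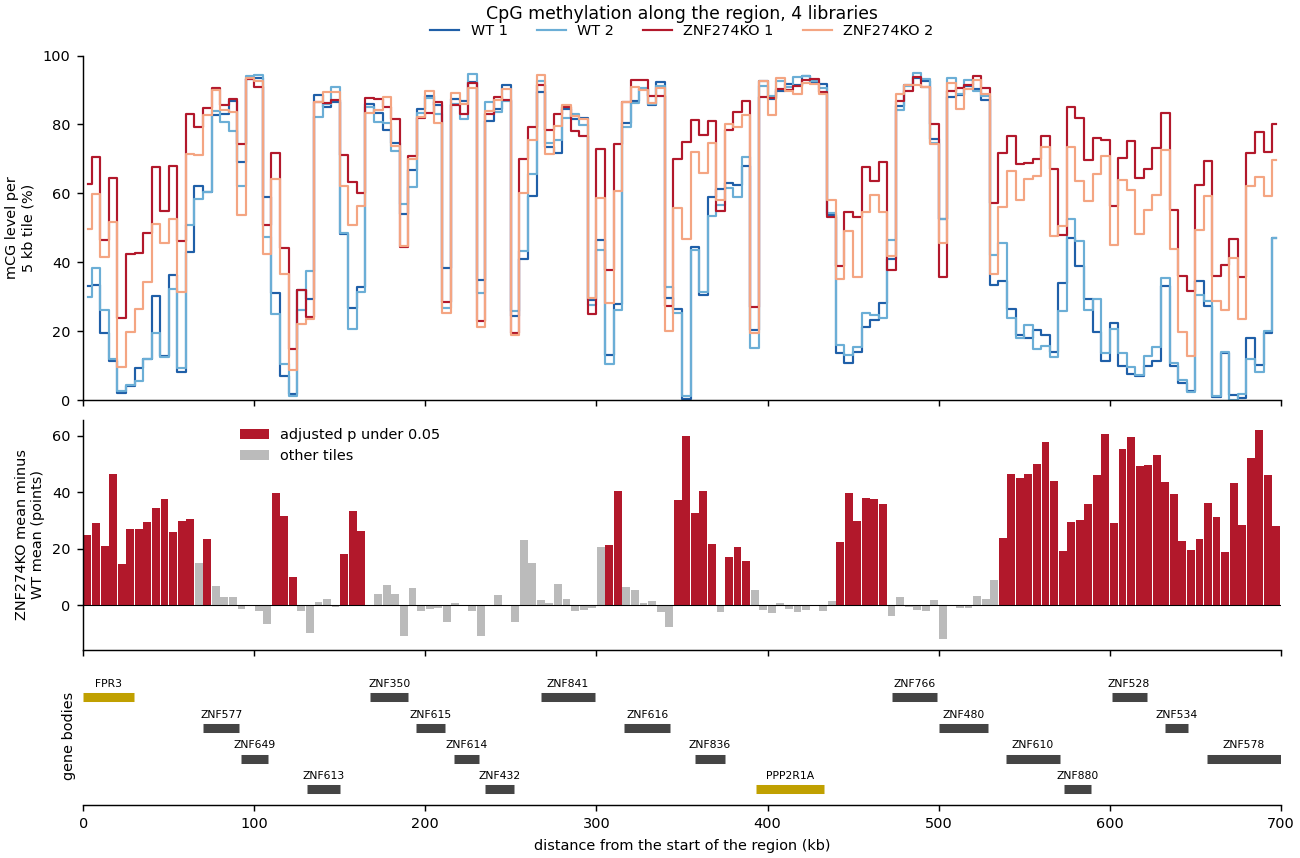
mCG level of each 5 kb tile in the 4 libraries (top, %), the difference of the group means (middle, percentage points, red where the edgeR adjusted p was under 0.05) and the gene bodies (bottom, KZFP genes in grey, FPR3 and PPP2R1A in yellow), all against the distance from the start of the region in kb. The WT libraries vary widely along the region, and 64 of the 69 red tiles have a WT mean under 50%, with 33 red tiles in an unbroken row at the right end.

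Most of the called tiles had a low level in WT. Of 76 tiles with a WT mean under 50%, 64 were called higher (1.12% of such tiles genome-wide), with a median difference of 30.3 points. Of 64 tiles at or above 50%, 5 were called higher (0.074% of such tiles genome-wide), with a median difference of 0.48 points. A tile near the top of the scale has little room to rise, and the WT level is also part of the difference, so these counts are descriptions. Among the 12 tiles under 50% that were not called, 8 held a gene start. In those 8 tiles, picked for not being called higher, the median difference was -5.75 points. Of them 4 were below WT in both ZNF274KO libraries (22.3% of all tiles) and 0 above in both (13.5%). Over all 18 tiles with a gene start the median difference was -1.92 points. Among these 18, 5 were called higher (0.474% of all tiles), 6 were above WT in both ZNF274KO libraries (13.5%) and 5 below in both (22.3%). The shares among all tiles with a gene start were not counted.

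**Figure D2:**
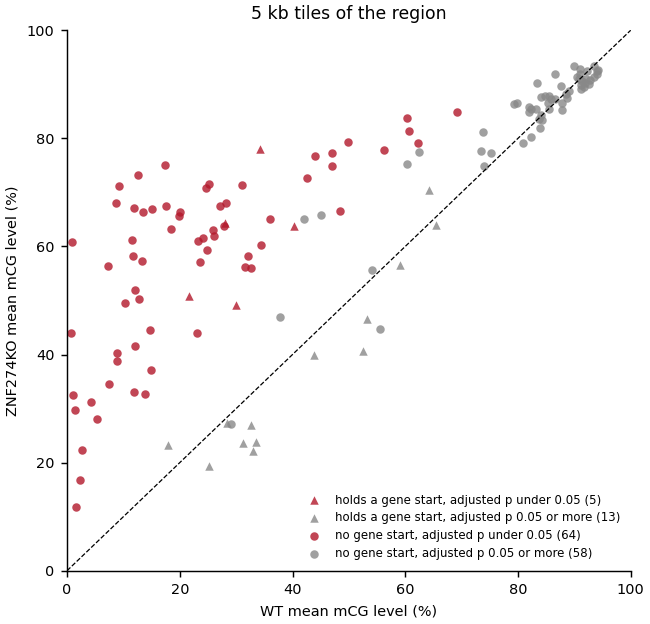
Mean mCG level of the WT libraries (x axis, %) against that of the ZNF274KO libraries (y axis, %) for the 140 tiles, with triangles for tiles that hold a gene start, red for an adjusted p under 0.05 and a dashed line of equal levels. Of the 76 tiles under 50% in WT, 64 are red and lie above the line, several with a gene start lie below it, the tiles above 80% in WT lie near it, and 13 of the 18 tiles with a gene start are grey.

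The called tiles formed 9 runs, and 66 of the 69 tiles lay in 7 runs of at least 3 neighbours. The longest (chr19:52835001-53000000) took 33 tiles and 165 kb over ZNF610, ZNF880, ZNF528, ZNF534 and the left part of ZNF578, with levels of 21.6% and 22.8% in WT and 67.5% and 56.9% in ZNF274KO. The tile between the end of ZNF480 and this run (chr19:52830001-52835000) was not called and differed by 9.11 points with overlapping libraries. The next longest (chr19:52300001-52365000) covered the part of FPR3 inside the region and sequence to its right, outside the gene bodies used here. The 13 tiles of this run went from 21.9% and 22.1% to 58.1% and 45.0%. Both of these runs met the border of the region, so neither ends there. The tile just left of the border (chr19:52295001-52300000, at the FPR3 start) was at 5.77% and 4.88% in WT and 35.6% and 20.2% in ZNF274KO, the first tile inside was at 33.3%, 29.9%, 62.8% and 49.8%, the last tile inside at 46.9%, 47.1%, 80.2% and 69.7%, and the tile just beyond it at 6.24%, 9.32%, 68.3% and 59.5%.

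The other 5 runs of 3 or more tiles lay between genes or around ZNF836. A run of 6 tiles between PPP2R1A and ZNF766 (chr19:52740001-52770000) rose from 18.5% and 20.1% to 58.4% and 48.6%. A run of 5 tiles from the gap beside ZNF616 into the body of ZNF836 (chr19:52645001-52670000) rose from 35.8% and 34.7% to 77.0% and 65.2%, and 3 tiles before the start of ZNF836 (chr19:52675001-52690000) rose from 64.4% and 63.3% to 82.7% and 80.5%. The runs at chr19:52410001-52425000, before ZNF613, and at chr19:52450001-52465000, after it, had 3 tiles each and gained 32.6 and 23.8 points. Between these runs the tiles over the bodies of ZNF649, ZNF613, ZNF350, ZNF615, ZNF614, ZNF432, ZNF841, ZNF616, PPP2R1A, ZNF766 and ZNF480 included none that was called, and over ZNF577 the only called tile was the one at its 3′ end (chr19:52370001-52375000), which rose from 60.3% and 60.4% to 84.9% and 82.8%.

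Among tiles with at least 20 CpGs, the 5 with the greatest rise were all called. The tile at chr19:52985001-52990000, within ZNF578, held 87 CpGs and went from 10.3% and 8.28% to 77.7% and 64.6% (adjusted p = 3.1e-07). The tile at chr19:52895001-52900000, between ZNF880 and ZNF528, went from 11.3% and 13.8% to 75.5% and 70.9% (adjusted p = 4.8e-07). The tile at chr19:52650001-52655000, between ZNF616 and ZNF836, was close to free of methylation in WT, at 0.38% and 1.41%, and reached 74.8% and 46.9% in ZNF274KO. The other two lay within ZNF528 (chr19:52910001-52915000, a rise of 59.3 points) and within ZNF610 (chr19:52860001-52865000, a rise of 57.8 points). In all 5 the lower ZNF274KO library was above 40%, far from the WT libraries.

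The 5 tiles with the greatest fall were not called, and 4 of them held a gene start. With the replicate number as a block, edgeR called 2 of them lower, at the starts of ZNF480 (adjusted p = 0.019) and ZNF614 (adjusted p = 0.0094). Both were also called with the numbers crossed (adjusted p = 0.029 and 0.012). Within 1 kb of the start the level differed by -3.28 points for ZNF480, with overlapping libraries, and by -5.10 points for ZNF614. Levels are sums of reads, so a shift of reads between CpGs of unlike level can also move them, which was not tested. At the start of ZNF480 (chr19:52800001-52805000) the levels were 52.7% and 52.5% in WT and 35.7% and 45.5% in ZNF274KO, a difference of -12.0 points with an adjusted p of 0.276. This difference was -16.9 points without ZNF274KO 2 and -7.07 without ZNF274KO 1. At the start of ZNF614 (chr19:52530001-52535000) the levels were 34.8%, 31.2%, 22.96% and 21.2%, with an adjusted p of 0.0994. The tile at the start of ZNF613 was at 29.4%, 37.6%, 24.2% and 23.5%, a difference of -9.64 points that was -5.56 without WT 2. The tile at the start of ZNF616 was at 29.6%, 32.9%, 27.2% and 20.1%, a difference of -7.60 points that was -4.02 without ZNF274KO 2. The difference was -10.8 points for a tile within ZNF350 (chr19:52485001-52490000). Leaving out WT 1, WT 2 or ZNF274KO 2 brought 1 of the 10 tiles named here across the threshold each time, the tiles of ZNF613, ZNF614 and ZNF480 respectively.

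Summed over whole gene bodies, 6 of the 17 KZFP genes and FPR3 were higher in ZNF274KO at an adjusted p under 0.05, while 0.79% of 19611 gene bodies were. None of the 19 was called lower (0.0459% of all bodies) by edgeR or limma, and 2 KZFP bodies were lower at an unadjusted p under 0.05. The rises were found at the right end of the region, at FPR3 and at ZNF836, and the 11 other KZFP bodies, all between ZNF577 and ZNF480, did not pass the test. Over all 17 KZFP bodies the median difference was 0.01 points, with a range from -8.35 to 49.8, beside a median of -0.94 points over all gene bodies tested. Both ZNF274KO libraries were above both WT libraries in 7 KZFP bodies (9.31% of all bodies) and below both in 3 (30.8%).

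ZNF528 had the greatest rise. Its body (chr19:52901102-52921654) was at 11.2% and 12.7% in WT and at 67.7% and 55.7% in ZNF274KO, a gain of 49.8 points (adjusted p = 4.7e-07). ZNF610, which begins the row of rising genes (chr19:52839496-52871031), went from 21.2% and 21.9% to 72.6% and 63.7% (adjusted p = 4.0e-07). ZNF578, the longest of the genes that overlap the region (chr19:52956806-53020135), went from 15.1% and 16.4% to 64.8% and 53.2% (adjusted p = 4.7e-07). In these 3 genes the ZNF274KO libraries lay more than 30 points above the WT libraries, and ZNF274KO 1 was the higher each time.

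ZNF534 (chr19:52932401-52945752) went from 15.9% and 17.7% to 56.1% and 47.2% (adjusted p = 1.4e-05). FPR3 (chr19:52298410-52329443), the myeloid receptor gene, went from 19.6% and 21.7% to 55.6% and 43.1% (adjusted p = 7.1e-05). ZNF880 (chr19:52873176-52889048) started from a higher level, 39.97% and 41.5%, and reached 71.9% and 61.1% (adjusted p = 0.0011). ZNF836 (chr19:52657360-52674874), which encodes 24 finger patterns, the most of the 17, went from 53.0% and 50.6% to 70.3% and 67.6% (adjusted p = 0.0035) and was the called gene with the smallest rise. Without ZNF274KO 1 the bodies of ZNF836 and ZNF880 no longer passed, and limma called 4 bodies in place of 7, without FPR3, ZNF836 and ZNF880.

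The bodies that did not pass were at 61.1% or more in all libraries. PPP2R1A (chr19:52693305-52732771) was at 78.4% and 76.8% in WT and at 83.0% and 78.1% in ZNF274KO, with overlapping libraries. In 5 equal parts of its body beyond the first 1 kb the differences were between -2.44 and -0.18 points. ZNF766 and ZNF480 differed by -0.29 and -1.93 points. The difference of ZNF480 was -3.25 points without ZNF274KO 2 and -0.60 without ZNF274KO 1. ZNF841, ZNF616, ZNF350 and ZNF613 had ZNF274KO means within 0.5 points of the WT means. ZNF577 stood at 75.4% and 72.6% in WT and 84.0% and 76.0% in ZNF274KO, with an adjusted p of 0.611, but when the outermost bounds of all its transcripts were taken its difference was 22.3 points and it was called. ZNF649 and ZNF614 had the lowest differences, with 79.9%, 73.3%, 72.4% and 66.5% for ZNF649 (-7.15 points, adjusted p = 0.589) and 72.4%, 70.1%, 62.5% and 63.2% for ZNF614 (-8.35 points, adjusted p = 0.410). In both of these genes each ZNF274KO library was below each WT library, yet the differences did not pass the test. In the same 5 parts of the body ZNF614 differed by only -4.89 to 1.61 points. Levels are sums of reads, so a shift of reads between parts of unlike level can also move them, which was not tested. Without 1 library the body difference of ZNF649 ranged from -10.4 (without WT 2) to -3.85 points (without WT 1).

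**Figure D3:**
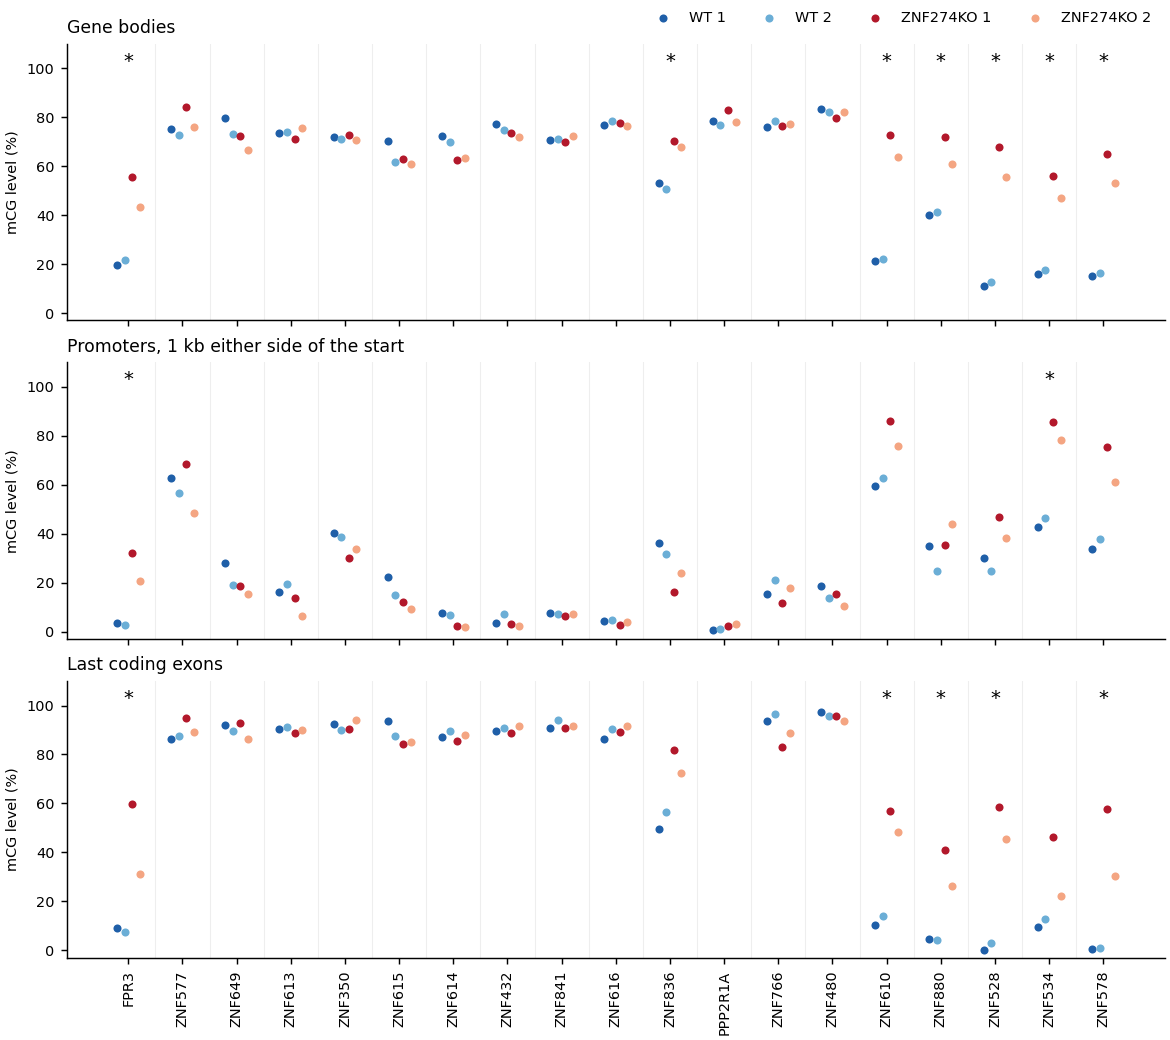
mCG level (%) of gene bodies, promoters and last coding exons of the 19 genes in their order along the region, with 1 point per library and an asterisk at an edgeR adjusted p under 0.05. The bodies and last exons of the 5 genes from ZNF610 to ZNF578 are low in WT and higher in ZNF274KO, those from ZNF577 to ZNF616 are high in all 4 libraries and none is called, and several promoters are slightly lower in ZNF274KO. The last coding exon of PPP2R1A was too short to be tested.

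A list of 17 KZFP genes to the right of the region gave similar counts, with 7 bodies called higher (0.79% of all bodies) and a median difference of 1.61 points. These genes were listed by name and not filtered by position, so the list does not match the adjoining 700 kb exactly. The 75th percentile of CpG levels, the summary statistic that the study's methods name, was higher by 66.9 points for ZNF528, 63.5 for both ZNF534 and ZNF578, 54.8 for ZNF610, 51.5 for FPR3, 25.5 for ZNF880 and 11.7 for ZNF836. For the 12 other genes it moved by between -4.55 and 3.51 points, and in WT it was already above 95% in all of them.

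Within the KZFP genes the difference varied with position. Between 5 and 1 kb before the start, both ZNF274KO libraries were above both WT libraries in 13 of 17 genes (13.7% of all genes) and below in 0 (24% of all genes), with a median difference of 17.8 points beside -0.64 over all genes. Within 1 kb of the start this was so in 5 genes (14.3% of all genes) and reversed in 8 (20.3%), with a median of -2.84 points. In the 5 equal parts of the remaining body the median differences were -0.73, 1.68, 3.35, 4.23 and 3.53 points from start to end, with 6, 7, 12, 11 and 12 genes higher in both libraries (10.4% to 10.8% of all genes) and 6, 3, 1, 2 and 1 lower in both (29.7% to 30.5% of all genes). In the 5 kb after the end the median was 15.7 points, with 11 of 17 genes higher in both libraries (12.4% of all genes) and 2 lower (24.7%). Neighbouring genes share some of this flanking sequence, so the genes are not independent of each other.

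**Figure D4:**
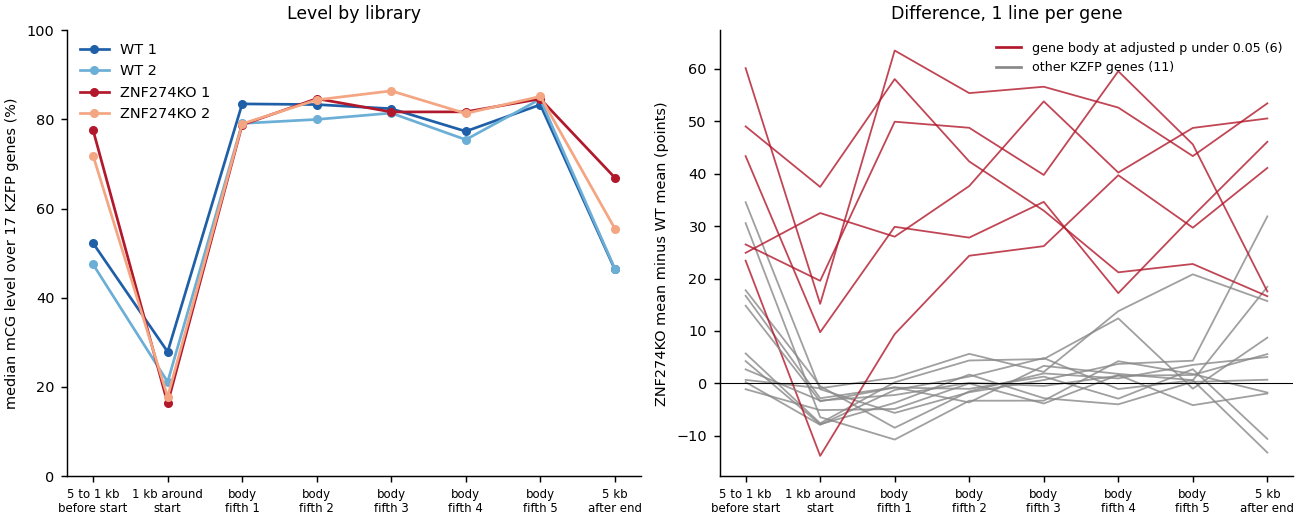
Left, median mCG level (%) over the 17 KZFP genes in each library, from 5 kb before the start to 5 kb after the end. Right, difference of the group means (percentage points) in the same parts, 1 line per gene, red for the 6 KZFP genes whose body passed the test. The median lines of the libraries come close within the gene bodies and separate before and after them. The medians of the WT mean were 76.4% to 84.5% in the 5 body parts, 49.9% before the start and 48.0% after the end. The red lines are above 0 in every part of the body. Around the start all of them but that of ZNF578 are lower than on either side, and that of ZNF836 is below 0.

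Sequence between genes was higher in most places. Gene bounds were those of a single transcript per protein-coding gene, so longer transcripts and other genes may reach into it. Of 15 stretches between neighbouring genes, taken 1 kb away from either gene, 13 were higher in both ZNF274KO libraries, 1 was lower and 1 overlapped, with a median difference of 24.7 points. Of 14404 such stretches on the autosomes and X, 10.4% were higher and 26.8% lower in both libraries, with a median difference of -0.70 points. The 2 greatest differences flanked ZNF528, with 13.7% and 16.7% in WT and 74.2% and 61.1% in ZNF274KO on the side of ZNF534, and 16.2%, 23.8%, 75.5% and 67.1% on the side of ZNF880. The stretch between ZNF616 and ZNF836 went from 24.6% and 22.6% to 73.4% and 54.7%, although the body of ZNF616 beside it did not pass the test. The stretch that was lower, between ZNF614 and ZNF432, measured 998 bases and held 7 CpGs. The stretches around ZNF615, already at 74.0% to 84.5% in WT, differed by 3.73 and 3.89 points.

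Promoters were taken as 1 kb on either side of the start, so each shares 1 kb with the gene body. They gave fewer calls than the bodies. FPR3 and ZNF534 were called higher, while 0.0971% of 19565 promoters were. None was called lower (0.0256% of all promoters) by edgeR or limma, but 5 KZFP promoters were lower at an unadjusted p under 0.05. Each ZNF274KO library was below each WT library at 8 of the 17 KZFP promoters (20.3% of all promoters) and above both at 5 (14.3%). The median difference over the 17 was -2.84 points, beside -0.18 over all promoters tested.

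The KZFP promoters that were higher in both ZNF274KO libraries belonged to the 5 genes at the right end. ZNF534 was at 42.8% and 46.2% in WT and 85.7% and 78.3% in ZNF274KO (adjusted p = 0.012), and ZNF578 at 33.6% and 37.8% against 75.4% and 61.0% (adjusted p = 0.067). ZNF610 was at 59.7%, 62.9%, 86.0% and 75.7% (adjusted p = 0.296), and its promoter, like those of ZNF528, ZNF534 and ZNF578, was more methylated than its body in WT. The ZNF578 promoter was called without WT 1, WT 2 or ZNF274KO 2 (adjusted p = 0.0011, 9.4e-05 and 0.0028) and with centring on the genome (adjusted p = 0.037), and that of ZNF610 without WT 2 or ZNF274KO 2 (adjusted p = 0.018 and 0.026). ZNF528 and ZNF880 differed by 15.2 and 9.76 points without passing the test, and the difference of ZNF880 was 4.61 points without WT 2 and 14.9 without WT 1. The FPR3 promoter, at the left end, with 17 CpGs, went from 3.39% and 2.56% to 32.1% and 20.7% (adjusted p = 0.019). Limma and promoters of 500 bases on either side gave 0 calls, with 8 and 7 of 19 at an unadjusted p under 0.05, and without ZNF274KO 1 only ZNF534 was called.

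The lower promoters belonged to genes of the left and middle part. ZNF836 was at 36.2% and 31.6% in WT and 16.4% and 23.9% in ZNF274KO, a difference of -13.8 points (adjusted p = 0.539), although its body was among those called higher. ZNF613, ZNF615 and ZNF350 differed by -7.91, -7.81 and -7.61 points, but with 500 bases on either side of the start by only -0.42, -1.05 and -4.23 points, while ZNF836 then differed by -18.3 points. Without 1 library the ZNF613 promoter ranged from -11.6 (without ZNF274KO 1) to -4.26 points (without ZNF274KO 2), and that of ZNF615 from -11.4 (without WT 2) to -4.20 (without WT 1). ZNF614 was at 7.72% and 6.88% in WT and 2.31% and 2.08% in ZNF274KO, with an adjusted p of 0.133, which became a call when WT 2 was left out, and with 500 bases on either side its difference was 0.055 points. The promoters of ZNF841, ZNF616 and ZNF432 were under 8% in every library, and that of PPP2R1A was between 0.87% and 3.21%, higher in both ZNF274KO libraries (adjusted p = 0.557). Among the 17 KZFP genes listed by name to the right of the region, 9 promoters were lower in both ZNF274KO libraries (20.3% of all promoters) and 4 higher (14.3%). Of these 17 promoters 1 was called lower (0.0256% of all promoters) and 0 higher (0.0971%).

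The last coding exons, which encode the fingers, followed the bodies. FPR3 and the KZFP genes ZNF610, ZNF880, ZNF528 and ZNF578 were called higher, while 0.699% of 9442 last coding exons were. None was called lower (0.0424% of all) by edgeR or limma, with 1 KZFP exon lower at an unadjusted p under 0.05. Both ZNF274KO libraries were above both WT libraries in 7 of the 17 KZFP exons (13.9% of all) and below both in 4 (21.9%). The median difference over the 17 was 0.90 points, beside -0.52 over all tested.

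The exon of ZNF528 (chr19:52918377-52919989, 16 CpGs) had 0 of 156 methylated reads in WT 1, which allows up to 1.92%, and 2.96% in WT 2, against 58.4% and 45.5% in ZNF274KO (adjusted p = 4.4e-05). That of ZNF578 was at 0.60% and 0.96% in WT and 57.6% and 30.4% in ZNF274KO (adjusted p = 1.1e-04), and that of ZNF610 (chr19:52868951-52870017) at 10.6%, 14.2%, 56.7% and 48.1%. The exon of ZNF880 (chr19:52887102-52888564) went from 4.67% and 4.40% to 41.1% and 26.1%, from a far lower WT level than its body. The exons of ZNF836 (49.5%, 56.3%, 81.9% and 72.5%, adjusted p = 0.053) and ZNF534 (9.64%, 12.7%, 46.4% and 22.3%, adjusted p = 0.071) lay just outside the threshold. The 11 other KZFP exons were at 83.1% or more in every library and differed by between -9.10 and 5.15 points. Limma called 0 of the 18 exons tested, with 8 at an unadjusted p under 0.05, and without ZNF274KO 1 edgeR called 0, with 7 at an unadjusted p under 0.05.

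The CpGs were also grouped by sequence. A script found 22 CpG islands in the region (500-base windows with at least 55% G and C and an observed-to-expected CpG ratio of at least 0.65), and 17 of the 19 gene starts lay within 500 bases of one. The 1266 island CpGs went from 21.8% and 20.4% to 29.2% and 24.8%, a difference of 5.92 points. CpGs within 2 kb of an island differed by 9.08 points, other CpGs in gene bodies by 16.6 points and other CpGs between genes by 28.1 points, with both ZNF274KO libraries above both WT libraries in each class. In the rest of chromosome 19 the differences of the 4 classes were -0.42, 1.37, 1.96 and 6.67 points in the same order.

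Duplicated sequence can place reads of one gene copy on another, so CpGs were split by whether the 50 converted bases around them occur elsewhere in the genome. The 6533 CpGs in sequence that occurs once went from 46.9% and 45.9% to 63.9% and 58.5%. The 2476 CpGs in sequence found more than once went from 55.3% and 54.4% to 79.8% and 74.3%. The difference was 14.8 points in the first class and 22.3 points in the second.

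At single CpGs, fewer sites were unmethylated in ZNF274KO. Among 5656 CpGs covered by 5 reads or more in all 4 libraries, the share at or under 20% was 40.1% and 40.3% in WT and 16.5% and 21.8% in ZNF274KO. The share at or above 80% went from 39.4% and 39.1% to 55.04% and 49.8%, and the share between went from 20.5% and 20.6% to 28.4% and 28.5%. In the rest of chromosome 19 the share at or under 20% was 25.9% and 26.3% in WT and 21.2% and 23.4% in ZNF274KO, a difference of -3.82 points beside -21.0 in the region, and the share at or above 80% differed by 1.98 points beside 13.1. Of 2205 CpGs in the region at or under 20% in the WT mean, 909 were still there in the ZNF274KO mean, 1007 had moved to an intermediate level and 289 had reached 80% or more. Of 2200 CpGs at or above 80% in the WT mean, 2014 were still there and 6 had fallen to 20% or under. Classes set on the WT mean of few reads lose members by sampling alone, so these transitions are descriptions.

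**Figure D5:**
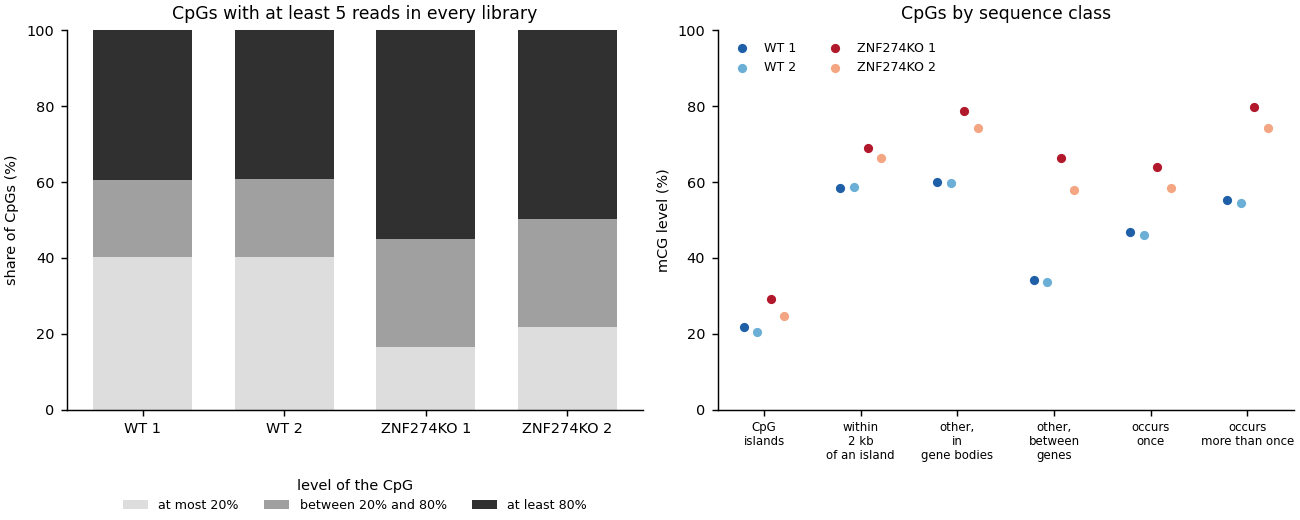
Left, share (%) of CpGs covered by 5 reads or more in all 4 libraries whose level was at most 20%, between 20% and 80%, or at least 80%, as stacked bars for the 4 libraries. Right, mCG level (%) by sequence class, 1 point per library. The pale share goes from about 40% in both WT libraries to 16.5% and 21.8%, and the groups are separate in every class, by least in CpG islands and by most between genes.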

How the data were processed

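The authors aligned the reads to hg19, extended by rDNA, through Msuite2 v.2.2.0 with hisat2, and deposited 1 table per library of read counts per CpG, strand and base call, neither pooled nor normalised. Whether reads were filtered by mapping quality or for duplicates is not given in the sources used here, and duplicate reads would make the counts look more precise than they are. Reads with C were taken as methylated and reads with T as unmethylated, and both strands were added. The 4 libraries were grouped and numbered by their titles.

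Counts were added up within 5 kb tiles, gene bodies (canonical transcript of GENCODE 44 on GRCh37), promoters (from 1 kb before to 1 kb after the start) and last coding exons, and features needed 5 CpGs and 20 reads per library. All such features of the autosomes and X entered the quasi-likelihood test of edgeR 4.0.16 (R 4.3.3) on methylated against unmethylated counts, where each library had its own term and the group effect was a log-odds of methylation, and p-values were Benjamini-Hochberg adjusted over each whole table and called at 0.05. The dispersion came from 20000 seeded rows. The model was also run on simulated counts, with the spread between libraries taken from the WT libraries only. These lay closer together over the region than the ZNF274KO libraries, so the simulation does not cover the spread of ZNF274KO. Sums over stretches were compared by exact permutation of the libraries, and differences are in percentage points. Alternatives were limma 3.58.1 (log2 of methylated over unmethylated counts, pseudocount 1), minimums of 10 and 50 reads, centring, a replicate block, CpGs with at least 3 reads, omission of CpGs deeper than 5 times the median, tiles of 10 and 2 kb, promoters of 500 bases, the 75th percentile over CpGs, and each library left out in turn. The outermost gene bounds, a block with crossed replicate numbers and CpGs in sequence that occurs once were chosen after seeing the data. The reference marks no repeats, so a split by repeats was not made. Named were all 19 genes, the 5 greatest rises and falls among tiles with at least 20 CpGs, and runs of 3 or more called tiles. The region, the gene lists and the tests were chosen with earlier results of these data known. Python 3.11.15, numpy 2.4.6, pandas 2.3.3 and matplotlib 3.10.9 were used.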

Additional observations from a re-analysis of the deposited data

How the results depend on the processing

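The difference of 16.7 points over the region was between 13.9 and 19.5 points without 1 library, and between 14.8 and 16.9 points under the other alternatives. Of 140 tiles, 69 were called, 50 to 73 without 1 library and 24 with limma, and tiles of 10 kb and 2 kb gave 34 of 70 and 154 of 350, of which 34 and 149 were higher. Gene bodies gave 7 calls, 5 to 7 without 1 library and 4 with limma. Promoters gave 2 calls, 1 to 5 without 1 library, 0 with limma and 0 with 500 bases on either side, where 8 and 7 of 19 had an unadjusted p under 0.05. Last coding exons gave 5 calls, 0 to 5 without 1 library and 0 with limma, where 8 of 18 had an unadjusted p under 0.05. With the replicate number as a block, the 4 kinds gave 73 tiles (71 higher and 2 lower), 7 bodies, 5 promoters (4 higher, and ZNF614 lower) and 7 last coding exons, but with 2 pairs the numbers do not show that samples were paired. Across all tiles the deviations of same-numbered libraries correlated at -0.11, and with the numbers crossed the block gave 75 tiles, 7 bodies, 5 promoters and 7 exons. The cause of the losses and gains was not tested. At 7 to 9 reads per CpG, single CpGs carry no test.

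Signs turned for some of the genes that were not called. Without 1 library, the body differences ranged from -2.54 to 2.04 points for ZNF613, from -0.84 to 0.86 for ZNF350, from -8.21 to 0.38 for ZNF615, from -0.90 to 1.25 for ZNF841, from -1.22 to 0.29 for ZNF616 and from -1.55 to 0.96 for ZNF766. The promoter of ZNF577 ranged from -10.9 to 9.09, and the last coding exons of ZNF649 from -4.49 to 2.01, of ZNF350 from -0.95 to 2.75, of ZNF432 from -1.37 to 1.72 and of ZNF841 from -2.96 to 0.46. With CpGs of at least 3 reads the body of ZNF613 was at 0.15, the body of ZNF350 at -0.14, the promoter of ZNF480 at 0.062 and the last coding exon of ZNF649 at 0.23. With outermost gene bounds the body of ZNF432 was at 0.63. With 500 bases the promoters of ZNF577, ZNF649, ZNF614 and ZNF432 were at 0.97, 1.31, 0.055 and 0.17.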
